A study of Mus musculus with 12 samples.

Results

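The T cells of a transferred pool that settle in the mesenteric lymph node (mLN), which drains the gut, can be set against those of the spleen, which filters the blood, by reading their T cell receptor (TCR) beta chains. This comparison was made here in mice that had received AMPK-deficient T cells. It was restricted by genotype and organ: of the 12 TCR beta libraries, the 6 labelled KO were taken, 3 from mLN and 3 from spleen, and the libraries with the same replicate number were paired as both organs of 1 mouse. Donor T cells were labelled KO (CD4-Cre PRKAA1fl/fl) and lacked AMPKα1, the catalytic subunit of the energy sensor AMPK, from T cells only, because the CD4 promoter drives the Cre. The other 6 libraries, from 3 mice given WT (PRKAA1fl/fl) cells that carried the floxed alleles but no Cre, serve as the reference for the same organ comparison. All were C57BL/6, and all recipients were Rag2–/– mice, which have no mature T or B cells of their own. They were analyzed 6 weeks after transfer of naive CD4+ T cells that induces colitis. The labels give no age. Neither the loss of Prkaa1 nor the cell type could be checked in these libraries, since they hold TCR transcripts alone.

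A T cell assembles a TCR beta gene by joining 1 V, 1 D and 1 J segment with a random loss and addition of nucleotides at the joints. The joint lies in complementarity-determining region 3 (CDR3), the loop that touches the antigenic peptide, so that a CDR3 nucleotide sequence serves as a tag for a clone and all of its daughters. V segments also encode the loops that lean on the MHC molecule. T cells recirculate between lymph nodes and spleen, and in transfer colitis naive CD4+ T cells expand in the lymphopenic host and respond to the gut microbiota, which the mLN samples.

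A clonotype was a distinct CDR3 nucleotide sequence, and its size was its number of unique molecular identifiers (UMIs), tags that mark single cDNA molecules. The 6 libraries held 595662 UMIs. KO replicate 1 had 23756 UMIs in mLN and 64882 in spleen. KO replicate 2 had 127685 and 155916, and KO replicate 3 had 2488 and 220935. The mLN library of KO replicate 3 was thus the smallest, with 283 clonotypes against 16089 in its spleen, and a clonotype at 0 there may reach 0.121% (3 counts of its total). It also differed from its own spleen in its clonotypes counted once. Among clonotypes counted once, the CDR3 did not finish with the usual nucleotides of its J segment in 3.23% of cases, against 34.9% in its spleen, whereas both organs were alike in KO replicate 1 (2.60% in mLN and 5.85% in spleen) and in KO replicate 2 (31.4% and 33.6%). Over all 12 libraries this share went with library size. It was at most 5.85% in libraries of up to 64882 UMIs and at least 26.1% in those of 68536 UMIs or more. The organs of KO replicate 3 lay on opposite sides of this divide. The values of KO replicate 3 are therefore given apart, and the part of its mLN library in them was not tested. Frequencies were compared at an equal depth of 2488 UMIs, as the average of 50 random draws. Shares of single clonotypes and of V and J segments come from the full tables.

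The 2 largest clonotypes of each organ show how the same clone stood in the other organ, and their CDR3 sequences are printed in lower case from the first to the last CDR3 nucleotide, with the nucleotides between the aligned V and J parts (D segment and junctional additions) in capitals.
KO replicate 1, TRBV15–TRBJ2-7: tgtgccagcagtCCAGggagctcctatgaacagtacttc
KO replicate 1, TRBV13-1–TRBJ2-1: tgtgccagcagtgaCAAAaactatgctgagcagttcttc
KO replicate 1, TRBV13-2–TRBJ1-2: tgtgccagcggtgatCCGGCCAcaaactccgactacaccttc
KO replicate 1, TRBV13-1–TRBJ1-1: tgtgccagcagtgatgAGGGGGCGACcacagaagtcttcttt
KO replicate 2, TRBV1–TRBJ1-1: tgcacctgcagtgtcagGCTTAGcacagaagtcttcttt
KO replicate 2, TRBV15–TRBJ1-1: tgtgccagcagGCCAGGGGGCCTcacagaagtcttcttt
KO replicate 2, TRBV2–TRBJ2-3: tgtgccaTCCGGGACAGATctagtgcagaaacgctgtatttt
KO replicate 3, TRBV26–TRBJ2-1: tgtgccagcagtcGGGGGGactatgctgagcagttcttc
KO replicate 3, TRBV13-2–TRBJ2-5: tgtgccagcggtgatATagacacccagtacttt
KO replicate 3, TRBV5–TRBJ2-4: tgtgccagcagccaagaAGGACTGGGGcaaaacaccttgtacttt

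The clone that dominated 1 organ was seldom equally large in the other, although each was present in both. In KO replicate 1, the TRBV15–TRBJ2-7 clonotype took 15.4% of spleen UMIs (Wilson 95% confidence interval 15.1 to 15.7%) and 3.45% of mLN UMIs (3.22 to 3.69%). Its neighbour in spleen rank, TRBV13-1–TRBJ2-1, took 8.85% of spleen and 0.850% of mLN UMIs, a 10.4-fold difference (9.05 to 11.96). In the mLN of the same mouse, the largest clonotype was TRBV13-2–TRBJ1-2 with 5.78%, against 2.60% in spleen, followed by TRBV13-1–TRBJ1-1 with 5.41% against 3.19%. In this mouse the large clones therefore lay on both sides, with the widest gaps on the spleen side. In KO replicate 2, TRBV1–TRBJ1-1 was the largest clonotype of both organs (3.13% of mLN and 2.37% of spleen UMIs), and it was not called different at equal depth. The clonotype ranked 2 in its mLN, TRBV15–TRBJ1-1, took 2.77% there and 1.04% in spleen. The clonotype ranked 2 in its spleen, TRBV2–TRBJ2-3, took 1.92% there and 0.504% in mLN. In KO replicate 3, TRBV26–TRBJ2-1 was also the largest in both organs, at 12.8% of mLN (11.5 to 14.2%) and 3.85% of spleen UMIs (3.77 to 3.93%), a 3.32-fold difference. TRBV13-2–TRBJ2-5 took 5.67% of its mLN and 0.355% of its spleen UMIs, and TRBV5–TRBJ2-4 took 1.33% and 3.26%. These intervals cover counting error only, and as 1 cell can give several UMIs, they are narrower than intervals over cells would be.

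The 10 largest clonotypes of an organ were all found in the other organ of the same mouse. In KO replicate 1, 6 of the 10 largest mLN clonotypes were also among the 10 largest of the spleen, whereas in KO replicates 2 and 3 it was 1 of 10. Among the 100 largest of the other organ were 10, 10 and 9 of the top 10 of mLN, and 10, 8 and 9 of the top 10 of spleen. The lowest rank that a top 10 spleen clonotype took in mLN was 79, 344 and 191 in KO replicates 1, 2 and 3. The top 10 of mLN made up 30.1% of mLN UMIs and 33.6% of spleen UMIs in KO replicate 1. In KO replicate 2 they made up 18.8% and 8.89%, and in KO replicate 3 39.0% and 8.20%.

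Over the repertoires drawn to equal depth, the organs of a KO mouse shared many of their most abundant clones, at unequal frequency. The Morisita-Horn overlap, which is 1 for identical repertoires and 0 for repertoires with nothing in common, was 0.530, 0.687 and 0.473 in KO replicates 1, 2 and 3. Of the 100 most abundant clonotypes of each organ, 62.3, 57.5 and 45.98 were in common on average. Between mLN and spleen of different KO mice, 0.0800 to 0.820 were. The total variation distance, the percentage of UMIs that would have to change clonotype to turn 1 organ into the other, was 49.4%, 50.8% and 65.1%. KO replicate 3 stood lowest in overlap and highest in distance. In WT mice the overlap was 0.473, 0.833 and 0.632, so that the genotypes overlapped (KO minus WT −0.0829, two-sided exact permutation test over 20 assignments, p = 0.7, adjusted p = 0.7, smallest possible p 0.1). The total variation distance was 55.1 ± 8.65% in KO and 48.2 ± 2.93% in WT (mean ± SD, n = 3 each, exact permutation p = 0.2, adjusted p = 0.533). Drawn to the smaller library of each mouse, the distance was 43.6% in KO replicate 1 at 23756 UMIs and 42.3% in KO replicate 2 at 127685 UMIs.

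Next, single clonotypes were tested within each mouse by Fisher's exact test at equal depth, among those with at least 10 UMIs over both organs. A clonotype was called when its adjusted p was under 0.05 in at least 25 of the 50 draws. This test compares 2 libraries and not 2 conditions, and its calls rise with depth. In KO replicate 1, 21 of 91 clonotypes were called (23.1%), of which 12 were higher in mLN (13.2%) and 9 in spleen (9.89%). In KO replicate 2, 25 of 112 were called (22.3%), 11 higher in mLN (9.82%) and 14 in spleen (12.5%). In KO replicate 3, 52 of 91 were called (57.1%), 27 higher in mLN (29.7%) and 25 in spleen (27.5%). Calls thus lay on both sides in each mouse, and the share called was higher in KO replicate 3 than in the other mice. Over the 3 mice 50 clonotypes were higher in mLN and 48 in spleen, and when at least a 4-fold difference was also required the split was 24 and 41. A clone with more cells and a clone with more TCR transcripts per cell cannot be told apart in these counts. The WT mice had 25%, 3.96% and 2.11% of tested clonotypes called, against which the KO shares did not stand apart (34.2 ± 19.9% against 10.4 ± 12.7%, exact permutation p = 0.3, adjusted p = 0.533).

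**Figure D1:**
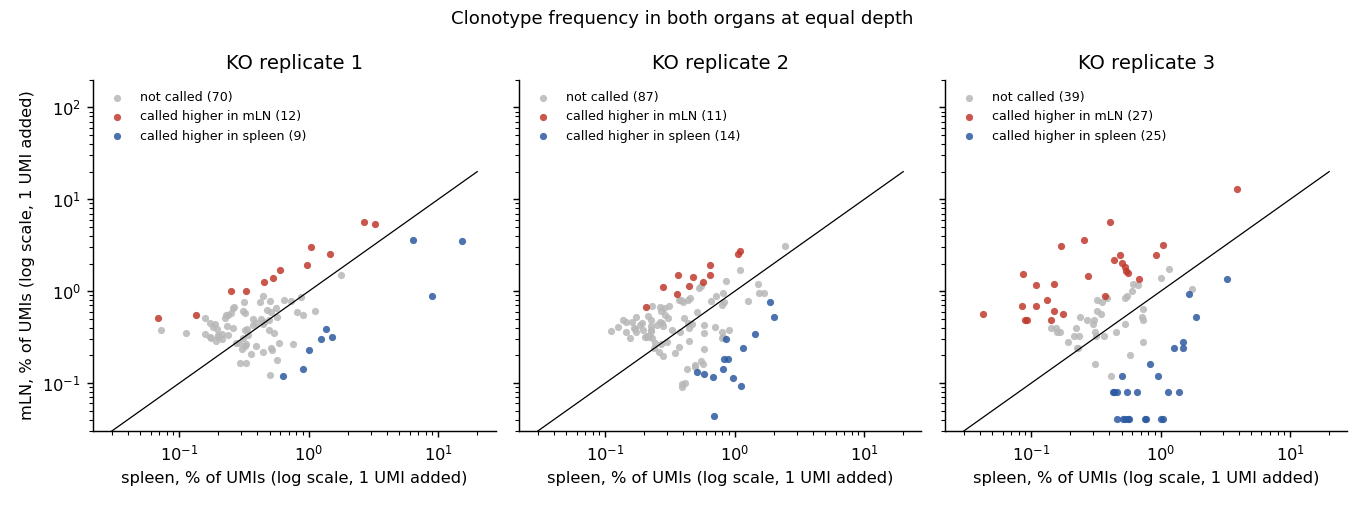
Frequency of each tested clonotype in spleen (horizontal axis) and mLN (vertical axis) of the 3 KO mice, in percent of UMIs at equal depth, on log scales with 1 UMI added. Points are clonotypes, colors show the call with the number in brackets, and the line marks equal frequency; the row of points at the bottom of KO replicate 3 holds clonotypes with no UMI in its mLN.

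The called clonotypes held a large part of each repertoire. The 12 clonotypes higher in the mLN of KO replicate 1 made up 25.9% of its mLN and 11.1% of its spleen UMIs, and the 9 higher in its spleen made up 9.08% and 37.0%. In KO replicate 2 the 11 higher in mLN made up 16.4% of mLN and 5.75% of spleen UMIs, and the 14 higher in spleen 2.76% and 13.9%. In KO replicate 3 the 27 higher in mLN made up 54.5% and 11.4%, and the 25 higher in spleen 3.899% and 23.5%. The median fold at equal depth, with 1 UMI added, was 2.81, 2.62 and 5.09 for clonotypes higher in mLN, and 4.36, 4.74 and 7.95 for clonotypes higher in spleen. Of the 98 called clonotypes, 89 were found in both full tables. The 9 others were spleen clonotypes at 0 in the small mLN library of KO replicate 3. Among them, TRBV26–TRBJ1-3 took 1.01% of spleen UMIs, which is at least 8.34-fold higher than the 3 counts that a 0 allows there.

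When the 98 called clonotypes were sorted by V segment, a grouping chosen after the values were seen, those of 3 V segments fell mostly to 1 organ. TRBV13-2 was the V segment of 12 clonotypes higher in mLN and of 2 higher in spleen, out of 38 tested. The 12 were spread over all 3 mice, with 4, 3 and 5 in KO replicates 1, 2 and 3, whereas both spleen clonotypes came from KO replicate 3. TRBV16 was the V segment of 0 clonotypes higher in mLN and 7 higher in spleen, out of 16 tested, with 3, 3 and 1 in the 3 mice. TRBV5 was the V segment of 1 clonotype higher in mLN and 9 higher in spleen, out of 28 tested, with 2, 2 and 5 of the latter. As shares of the tested clonotypes, 31.6% of TRBV13-2 were called higher in mLN and 5.26% in spleen, against 17.0% and 16.3% over all 294 tested. For TRBV16 these shares were 0% and 43.8%, and for TRBV5 3.57% and 32.1%. With the uncalled clonotypes included, 31 of the 38 TRBV13-2 clonotypes were more frequent in mLN (9 of 12, 11 of 12 and 11 of 14 in the 3 mice), against 176 of 294 over all. The related TRBV13-1 had 6 clonotypes higher in mLN and 8 in spleen out of 24, and TRBV13-3 had 2 and 3 out of 17. With the uncalled clonotypes included, 16 of 24 TRBV13-1 and 12 of 17 TRBV13-3 clonotypes were more frequent in mLN. These are counts over clonotypes that share mice, for which no test was made. In WT mice TRBV13-2 had 1 clonotype higher in mLN in each mouse and 0 in spleen, out of 16, 9 and 13 tested in WT replicates 1, 3 and 4. Over all V segments these mice had 10, 2 and 1 higher in mLN and 12, 2 and 1 in spleen, out of 88, 101 and 95. With the uncalled included, 9 of 16, 6 of 9 and 6 of 13 TRBV13-2 clonotypes were more frequent in mLN, against 50, 51 and 42 over all V segments. With the uncalled included, the lean of TRBV13-2 clonotypes was small in WT mice. Its called counts there, 1 in mLN and 0 in spleen of each mouse, are too few to give the size of a lean. The difference from KO mice was not tested. In WT replicates 1, 3 and 4, TRBV5 had 1, 2 and 0 clonotypes higher in spleen and 0 in mLN, out of 4, 13 and 9. TRBV16 had 3, 0 and 0 higher in spleen and 1, 0 and 0 in mLN, out of 6 in each mouse. With the uncalled included, 3, 6 and 4 TRBV5 clonotypes and 3, 4 and 3 TRBV16 clonotypes were more frequent in mLN.

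**Figure D2:**
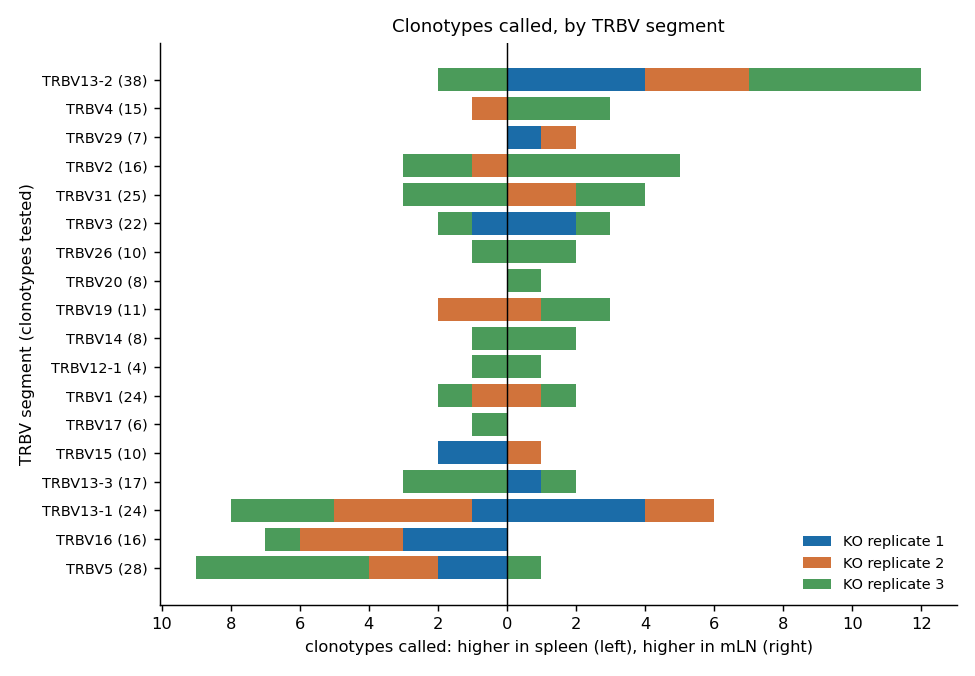
Number of clonotypes called higher in spleen (bars to the left) and higher in mLN (bars to the right) for each V segment, stacked by KO mouse, with the number tested in brackets. TRBV13-2 reaches 12 on the mLN side with all 3 mice present, while TRBV16 and TRBV5 reach 7 and 9 on the spleen side.

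The 12 TRBV13-2 clonotypes higher in mLN were different sequences. They used 6 J segments, with 3 each from TRBJ2-3, TRBJ2-4 and TRBJ2-5, and ranged from 33 to 51 nucleotides in CDR3 length. Examples with a large fold or shared features are printed below for each mouse, since the sequences differ between mice while the V segment is the same.
KO replicate 1, TRBV13-2–TRBJ2-4: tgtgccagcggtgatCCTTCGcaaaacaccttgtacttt
KO replicate 1, TRBV13-2–TRBJ2-5: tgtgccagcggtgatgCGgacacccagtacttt
KO replicate 2, TRBV13-2–TRBJ2-3: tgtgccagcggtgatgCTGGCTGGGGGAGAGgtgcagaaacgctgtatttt
KO replicate 2, TRBV13-2–TRBJ2-3: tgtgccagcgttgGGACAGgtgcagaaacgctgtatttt
KO replicate 3, TRBV13-2–TRBJ1-4: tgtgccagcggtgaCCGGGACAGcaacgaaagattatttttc
KO replicate 3, TRBV13-2–TRBJ2-4: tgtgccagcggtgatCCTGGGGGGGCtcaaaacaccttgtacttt
The TRBV13-2–TRBJ2-4 clonotype of KO replicate 1 took 0.484% of mLN and 0.0293% of spleen UMIs, a 16.5-fold difference (95% counting interval 10.2 to 26.9). The TRBV13-2–TRBJ2-5 clonotype of the same mouse took 1.25% and 0.455%, and it had the same V segment, J segment and CDR3 length of 33 nucleotides as the TRBV13-2–TRBJ2-5 clonotype of KO replicate 3 printed earlier. In KO replicate 2 the longer TRBV13-2–TRBJ2-3 clonotype took 1.01% of mLN and 0.246% of spleen UMIs, and the shorter one took 1.92% and 0.577%. In KO replicate 3, TRBV13-2–TRBJ1-4 took 3.05% and 0.136%, a 22.5-fold difference (17.5 to 28.8), and TRBV13-2–TRBJ2-4 took 1.49% and 0.0439%, a 33.9-fold difference (23.2 to 49.4). The 2 clonotypes called higher in mLN with the largest fold at equal depth were both TRBV13-2 in KO replicate 3, and 1 of them was in each of KO replicates 1 and 2.

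The 7 TRBV16 clonotypes higher in spleen differed by 3.61-fold to 7.39-fold where the mLN had any UMI. TRBV16–TRBJ2-7 of KO replicate 1 showed the largest of these differences, with 0.840% of spleen and 0.114% of mLN UMIs.
KO replicate 1, TRBV16–TRBJ2-7: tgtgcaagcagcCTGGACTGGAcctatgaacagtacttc
KO replicate 2, TRBV16–TRBJ2-1: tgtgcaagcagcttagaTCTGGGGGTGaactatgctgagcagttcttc
KO replicate 3, TRBV16–TRBJ2-1: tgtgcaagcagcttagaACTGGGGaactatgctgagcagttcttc
The TRBV16–TRBJ2-1 clonotype of KO replicate 2 took 0.787% of spleen and 0.115% of mLN UMIs. That of KO replicate 3 took 0.538% of spleen UMIs and was at 0 in mLN, which is at least 4.46-fold lower. The largest of the 7, TRBV16–TRBJ2-4 of KO replicate 1, took 1.46% of its spleen UMIs and ranked 7 there. The widest fold of any called clonotype with UMIs in both organs was found among the spleen clonotypes of KO replicate 2. There TRBV13-1–TRBJ1-2 took 0.632% of spleen UMIs and 0.00470% of mLN UMIs (985 and 6 UMIs), a 134-fold difference (60.3 to 300.0).
KO replicate 2, TRBV13-1–TRBJ1-2: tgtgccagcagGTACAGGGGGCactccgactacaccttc

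The V segments were then compared as shares of all UMIs, with edgeR's quasi-likelihood test, the mouse as a block and adjustment over 24 V segments. TRBV13-2 (Trbv13-2, GRCm38 chromosome 6, 41121396 to 41121832, plus strand, a V gene) made up 17.2%, 13.8% and 22.5% of mLN UMIs in KO replicates 1, 2 and 3, and 9.01%, 8.99% and 13.03% of their spleen UMIs. The organs did not overlap, and it was higher in mLN in each mouse, by 7.498 ± 2.43 percentage points (SD, n = 3). The log2 fold change was 0.78 ± 0.22 (SE), with an edgeR p of 0.00711 and an adjusted p of 0.171, which did not pass. Over the alternatives its adjusted p ranged from 0.0152 with all 12 libraries in the fit to 0.998 without the mouse as a block. TRBV16 (Trbv16, chromosome 6, 41151740 to 41152230, plus strand) made up 2.75%, 4.84% and 1.57% of mLN and 5.87%, 5.75% and 4.24% of spleen UMIs. It was lower in mLN in each mouse (log2 fold change −0.91 ± 0.37), with an edgeR p of 0.0388 and an adjusted p of 0.466, which ran from 0.0763 to 0.999 over the alternatives. TRBV5 (Trbv5, chromosome 6, 41062332 to 41062803, plus strand) made up 10.2%, 6.88% and 8.92% of mLN and 11.9%, 9.86% and 12.7% of spleen UMIs (log2 fold change −0.42 ± 0.25, edgeR adjusted p = 0.631). The mLN and spleen values of TRBV16 and of TRBV5 did not cross in any mouse, but the ranges of the organs over mice overlapped for both.

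In all, 0 of 24 V segments passed (0%), with 2 at an unadjusted p under 0.05, and DESeq2 called 0 as well. Of the 24, 5 were higher in mLN and 3 lower in mLN in all 3 mice. TRBV15 shows how 1 clone can set a segment's share. It made up 5.91% of mLN and 18.8% of spleen UMIs in KO replicate 1, where its largest clonotype alone took 15.4% of the spleen, but 5.89% and 5.13% in KO replicate 2 and 1.33% and 2.24% in KO replicate 3 (log2 fold change −0.74 ± 0.40, edgeR adjusted p = 0.631). TRBV26 was likewise led by KO replicate 3, at 14.3% of mLN and 6.85% of spleen UMIs, where the largest clonotype of both organs used it, against 2.48% and 2.31% in KO replicate 1 and 3.06% and 3.05% in KO replicate 2. TRBV13-1, the V segment of large clones on either side in KO replicate 1, made up 15.6%, 7.72% and 1.93% of mLN and 16.4%, 7.75% and 6.33% of spleen UMIs. The other V segments above 5% (TRBV1, TRBV2, TRBV3 and TRBV31) had log2 fold changes between −0.25 and 0.04, each lay higher in mLN in 2 of 3 mice, and each changed sign under at least 1 alternative.

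**Figure D3:**
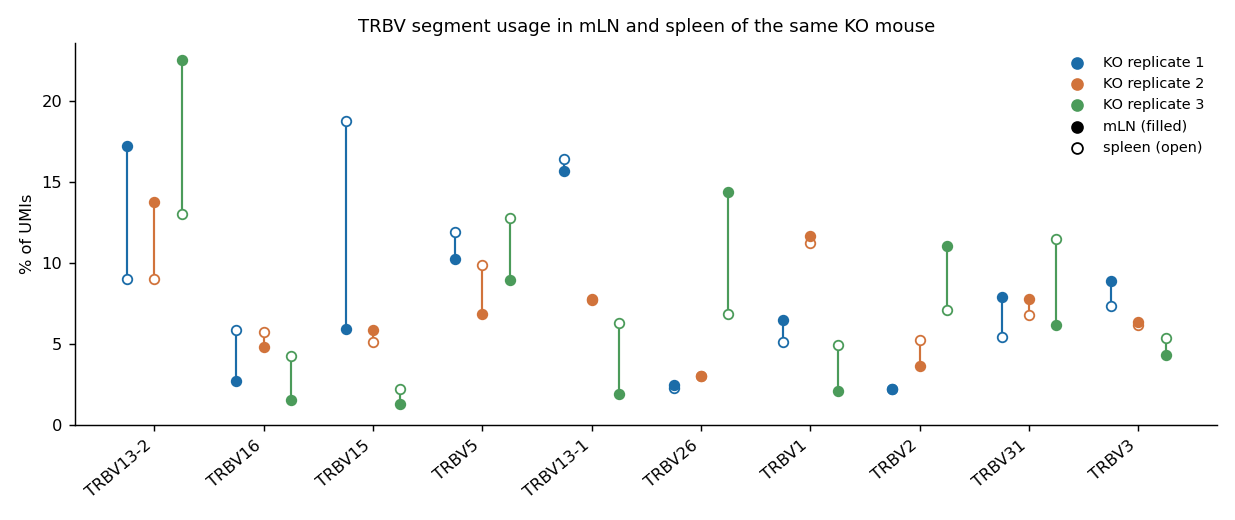
Share of UMIs (vertical axis, percent) of the V segments named by the rule, in mLN (filled circles) and spleen (open circles) of each KO mouse, with a line joining both organs of 1 mouse. TRBV13-2 lies higher in mLN in all 3 mice, and TRBV16 and TRBV5 lie lower.

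The share of TRBV13-2 in mLN did not rest on 1 clone. Without its largest clonotype in each library, TRBV13-2 made up 11.5%, 11.9% and 16.8% of mLN UMIs and 6.41%, 8.22% and 11.3% of spleen UMIs. Its called clonotypes together took 9.26% of mLN and 3.65% of spleen UMIs in KO replicate 1, 4.05% and 1.25% in KO replicate 2, and 14.2% and 3.54% in KO replicate 3. Its other clonotypes took 7.97% of mLN and 5.35% of spleen UMIs in KO replicate 1, and 9.73% and 7.74% in KO replicate 2. In KO replicate 3 they took 8.28% and 9.49%, so that there the higher share in mLN lay with the called clonotypes alone. With each clonotype counted once in place of its UMIs, TRBV13-2 made up 11.7%, 11.3% and 13.8% of mLN clonotypes and 11.97%, 9.34% and 11.6% of spleen clonotypes (edgeR log2 fold change 0.17, adjusted p = 0.986). The organs thus differed more in the UMI share of TRBV13-2 than in its share of clonotypes. Likewise TRBV16, counted by clonotypes, made up 4.34%, 5.30% and 3.18% in mLN and 4.76%, 4.63% and 4.91% in spleen. These clonotype shares were taken from full tables of unequal depth. Depending on the KO library, between 31.0% and 83.5% of the sequences listed there had a count of 1. Whether the organs differed in clone size or in clone number can therefore not be told from these shares.

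WT mice were set beside these values for the same organ contrast. TRBV13-2 was higher in mLN in 3 of 3 WT mice too, by 2.15 ± 1.33 percentage points (log2 fold change 0.24). The difference of the log2 fold changes between KO and WT was 0.54 for TRBV13-2 and −0.83 for TRBV16, with unadjusted edgeR interaction p of 0.0357 and 0.0456 and an adjusted p of 0.548 for both. Of 24 V segments 0 passed this test (0%), with 2 at an unadjusted p under 0.05. Of 12 J segments 0 passed it (0%), with 0 at an unadjusted p under 0.05 by edgeR, the only tool run. An organ effect particular to KO cells was thus not shown for any segment.

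J segments, which encode the end of the CDR3 loop, differed less. Of 12 J segments 0 passed (0%) between the organs, with 0 at an unadjusted p under 0.05, and DESeq2 called 0 too. TRBJ2-7, the most used, made up 14.8%, 18.0% and 11.8% of mLN UMIs and 25.3%, 17.9% and 16.1% of spleen UMIs (log2 fold change −0.40 ± 0.24, edgeR adjusted p = 0.902). Its value in KO replicate 1 held the TRBV15–TRBJ2-7 clonotype. TRBJ2-5 was higher in mLN in each mouse, with 11.1%, 11.2% and 15.9% against 10.1%, 9.67% and 12.8% (log2 fold change 0.22 ± 0.26, edgeR adjusted p = 0.902). TRBJ2-1 made up 8.84%, 6.27% and 25.9% of mLN and 15.1%, 8.34% and 15.2% of spleen UMIs, where the value of 25.9% contains the TRBV26–TRBJ2-1 clonotype. TRBJ1-1 made up 13.7%, 14.8% and 6.11% of mLN and 9.90%, 13.4% and 13.3% of spleen UMIs. TRBJ1-3 made up 8.09%, 7.76% and 4.86% of mLN and 4.06%, 7.09% and 5.73% of spleen UMIs. For each of the 5, the range over mice in mLN overlapped that in spleen.

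The CDR3 itself was compared by length and composition. Of 32 CDR3 length classes 0 passed (0%), with 0 at an unadjusted p under 0.05 by edgeR and 0 called by DESeq2. The commonest length of 42 nucleotides held 39.7%, 29.4% and 30.3% of mLN and 25.3%, 27.3% and 33.9% of spleen UMIs. The length of 39 nucleotides held 22.5%, 29.1% and 26.6% of mLN and 42.1%, 27.3% and 21.2% of spleen UMIs. At 45 nucleotides the values were 16.7%, 13.8% and 20.1% in mLN and 15.7%, 11.99% and 21.5% in spleen. The 3 smallest p belonged to rare classes of 16, 47 and 54 nucleotides, of which 54 alone keeps the reading frame, each at most 0.804% of UMIs in any KO library (edgeR adjusted p = 0.723 for each). At equal depth the mean CDR3 length by UMI was 41.2, 41.1 and 41.1 nucleotides in mLN and 40.8, 41.1 and 41.7 in spleen. The mean gap between V and J, which counts D and added nucleotides, was 8.25, 8.16 and 8.23 nucleotides in mLN and 7.27, 8.11 and 9.10 in spleen. Hydropathy of the loop on the Kyte-Doolittle scale was −1.29, −1.10 and −1.42 in mLN and −1.3004, −1.10 and −1.20 in spleen, and net loop charge was −0.573, −0.367 and −0.736 against −0.405, −0.420 and −0.554. UMIs of out-of-frame or stop-containing CDR3 sequences made up 3.14%, 5.97% and 4.10% in mLN and 3.06%, 6.47% and 5.198% in spleen.

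How strongly a few clones dominated differed between the organs in opposite directions from mouse to mouse. The top 10 clonotypes at equal depth took 29.9% of mLN and 43.5% of spleen UMIs in KO replicate 1. They took 19.0% and 16.1% in KO replicate 2 and 39.0% and 19.1% in KO replicate 3. The top clonotype alone differed by −9.37, 0.676 and 8.91 percentage points (mLN minus spleen). Richness was 570.1 and 463 clonotypes in mLN and spleen of KO replicate 1, 667 and 758 in KO replicate 2, and 283 and 780.5 in KO replicate 3. Clonality, 1 minus the normalized Shannon entropy, differed by −0.0803, 0.0137 and 0.0786. UMIs in clonotypes not seen in the other organ made up 19.0%, 18.7% and 11.96% of mLN and 11.6%, 25.6% and 44.4% of spleen. TRBJ2 segments together made up 60.9%, 66.0% and 71.95% of mLN and 73.1%, 66.7% and 68.2% of spleen UMIs. KO replicate 1 was thus the more focused in spleen and KO replicate 3 in mLN, while KO replicate 2 differed little.

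**Figure D4:**
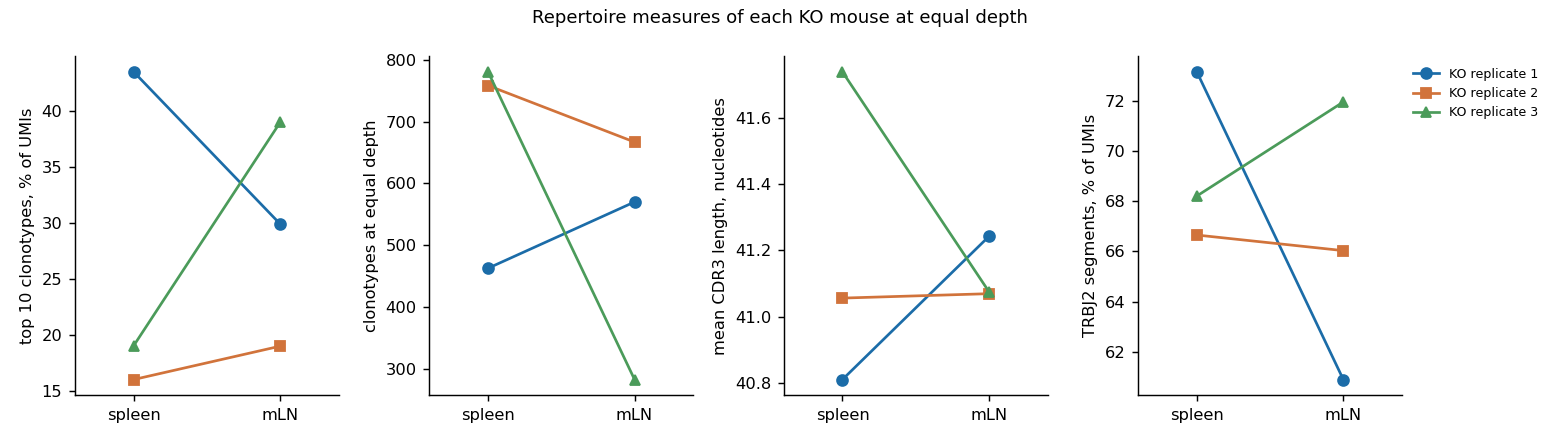
The share of the top 10 clonotypes, the number of clonotypes, the mean CDR3 length by UMI and the share of TRBJ2 segments in spleen and mLN at 2488 UMIs, each on its own vertical axis that does not start at 0. Lines join both organs of 1 KO mouse; they cross in each panel, and KO replicates 1 and 3 run in opposite directions.

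Of 12 such measures, 0 moved in the same direction in all 3 mice. Two-sided exact sign-flip tests over 8 patterns gave p from 0.5 to 1, where 0.25 is the smallest possible, and adjusted p of 1 for each. The organ differences of KO and WT mice were compared by exact permutation over 20 assignments, with p from 0.3 to 1 and adjusted p from 0.933 to 1. With 3 mice these tests cannot pass 0.05, so that they do not show that the organs were alike.

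Without KO replicate 3, the mean differences over KO replicates 1 and 2 were −5.30 percentage points for the top 10 clonotypes, 7.90 clonotypes for richness and −0.0333 for clonality, each opposite in sign to the mean over 3 mice (3.11, −161 and 0.00399). For richness this held at 2488 UMIs but not at the depth of the smaller library of each mouse, where the mean without KO replicate 3 was −306 clonotypes and that over 3 mice −369.8. The log2 fold change of TRBV13-2 was 0.78 without this mouse (edgeR adjusted p = 0.0520) and that of TRBV16 was −0.67 (edgeR adjusted p = 0.626). Of 24 TRBV13-2 clonotypes tested, 7 were then higher in mLN and 0 in spleen. Of 14 of TRBV16, 6 were higher in spleen and 0 in mLN, and of 17 of TRBV5, 4 and 0. Over all V segments 23 of 203 were higher in each organ (11.3%). Without KO replicate 3 a depth of 11271 UMIs could be used for the KO and WT mice left. There 36.6% of 290 clonotypes were called in KO replicate 1 and 34.7% of 357 in KO replicate 2, and the overlap was 0.530 and 0.720. Richness there was 1127 and 939 clonotypes in mLN and spleen of KO replicate 1, and 1596 and 1801 in KO replicate 2. At the full depth of the smaller library of each mouse, where smaller clones enter the test, 29 TRBV13-2 clonotypes were higher in mLN and 7 in spleen out of 61 in KO replicate 1, against 152 and 70 out of 466 over all V segments. In KO replicate 2 there were 34 and 47 out of 125, against 324 and 432 out of 1294. In KO replicate 1 TRBV13-2 thus leaned toward mLN beyond all V segments (47.5% and 11.5%, against 32.6% and 15.0%). In KO replicate 2 it did not lean toward mLN. More of its clonotypes were called in spleen there (27.2% and 37.6%), near the split over all V segments (25.04% and 33.4%). Over the 3 mice there were 68 TRBV13-2 clonotypes higher in mLN and 56 in spleen out of 200 tested, against 503 and 527 out of 1851 over all V segments. TRBV16 had 22 and 27 out of 90, and TRBV5 had 44 and 62 out of 179. TRBV13-3 had 38 and 22 out of 102, and TRBV13-1 had 34 and 31 out of 110. Pooled over the 3 mice at this depth, TRBV5 leaned toward spleen and TRBV13-3 leaned toward mLN more than TRBV13-2 did. The pooled splits of TRBV13-2 and TRBV16 were narrower than at 2488 UMIs. KO replicate 2 gave 1294 of the 1851 tested clonotypes, with TRBV5 at 30 and 50 out of 120 and TRBV13-3 at 29 and 16 out of 74. Neither of the first 2 patterns held in KO replicate 1. There TRBV5 had 13 higher in mLN and 7 in spleen out of 48, and TRBV13-3 had 8 and 3 out of 20.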

How the data were processed

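TCR beta transcripts of 12 samples (mLN and spleen of 3 mice given KO and 3 given WT T cells) were amplified by 5′RACE with UMIs and sequenced, and the authors assembled UMIs with MIGEC and clonotypes with MiXCR (versions not given in the sources used here). The deposited tables give, per clonotype, its count, read here as UMIs, and its fraction of the library; per the file headers they also name V, D and J segments, and they were not downsampled. Mouse V and J gene positions are from GRCm38; the tables carry no coordinates.

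Members, segments and lists were chosen with earlier results of these data known. Groups and mice come from the labels. Replicate numbers paired the organs of a mouse: 46.0 to 62.3 of the 100 largest clonotypes were in common within a number (3 pairs) and 0.0800 to 0.820 between numbers (6 pairs). Segments and CDR3 lengths (at least 10 UMIs in 3 libraries) were tested with edgeR 4.0.16 in R 4.3.3 (quasi-likelihood, mouse as block, library size as total UMIs, Benjamini-Hochberg), with DESeq2 1.42.0 as an alternative. Repertoire measures were averaged over 50 draws of 2488 UMIs (Python 3.11.15, numpy 2.4.6, scipy 1.17.1) and tested by exact sign-flip within mice and exact permutation between genotypes; loop values left out 4 residues at each end. Clonotypes of at least 10 UMIs over both organs were tested with Fisher's exact test in each draw. Folds at equal depth had 1 UMI added. Fisher's test and edgeR were checked on simulated counts. For Fisher's test UMIs were drawn independently, so that several UMIs from 1 cell were not covered. For edgeR no shift shared by both organs of a mouse was simulated.

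Named were V segments with a mean of at least 5% in either KO organ, V and J segments and lengths past the threshold or with the 3 smallest p, the 3 most used J segments and lengths, and, per mouse, the 2 largest clonotypes of each organ and the 2 called ones with the largest ratio each way; other clonotypes printed were chosen after their values were seen. Alternatives covered depth, scaling, filters, clonotype definition, block and each mouse left out. Intervals (Wilson, 95%) and limits for a 0 cover counting error only, as do the p-values of Fisher's test within a mouse; the other p-values measure the spread between 3 mice per genotype of 1 experiment.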

Additional observations from a re-analysis of the deposited data

Results flagged for a closer look

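For 1 result every KO mouse lay on 1 side and every WT mouse on the other. It was looked for among the named V segments, J segments and CDR3 lengths and the 12 repertoire measures. How often such a split would arise by chance among them was not tested. CDR3 sequences of 47 nucleotides, which are out of frame, were less frequent in mLN than in spleen in 3 of 3 KO mice, by a mean of −0.0875 percentage points, and more frequent in mLN in 3 of 3 WT mice, by a mean of 0.249 percentage points. They made up 0.0884%, 0.403% and 0.161% of mLN UMIs and 0.156%, 0.543% and 0.216% of spleen UMIs in KO replicates 1, 2 and 3. The 0.161% in the mLN of KO replicate 3 lies near the 0.121% that 3 counts make up there, so the direction in this mouse rests on few UMIs. The difference of the log2 fold changes between KO and WT was −1.18, with an unadjusted edgeR interaction p of 0.00650 and an adjusted p of 0.208 over 32 length classes, which did not pass. With clonotypes counted in place of UMIs, the log2 fold change within KO was −0.0677 (edgeR adjusted p = 0.938), against −0.57 with UMIs.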

How the results depend on the processing

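The counts of called clonotypes moved most with depth. Against 21, 25 and 52 in KO replicates 1, 2 and 3, 304, 820 and 96 were called with no downsampling. With both organs drawn to the smaller library of the mouse, 222 of 466 and 756 of 1294 were called in KO replicates 1 and 2. With a 4-fold difference required, 10 and 14 were called in these 2 mice, out of 203 tested in both together. With at least 20 UMIs, 33 were called in KO replicate 3, where 148 were tested over the 3 mice. With all 12 libraries in the fit, 1 V segment was called in KO (TRBV13-2), and with clonotypes counted in place of UMIs, 2 V segments for the difference between genotypes (TRBV12-2 and TRBV14) and 2 CDR3 lengths (42 and 48 nucleotides). Without the mouse as a replicate block, 0 V segments, 0 J segments and 0 CDR3 lengths were called by edgeR, as with it, with 0 at an unadjusted p under 0.05, and the adjusted p of TRBV13-2 was 0.998 at a log2 fold change of 0.79. The difference in clonality (mLN minus spleen) turned to −0.0782 with no downsampling and −0.00619 without clonotypes of 1 UMI, and that of CDR3 length by clonotype to −0.0502 nucleotides with no downsampling and −0.00869 at 1000 UMIs. Log2 fold changes of V segments that changed sign were TRBV16 (0.0312), TRBV26 (−0.0563) and TRBV31 (0.0543) with clonotypes counted in place of UMIs, TRBV2 (−0.0611) and TRBV3 (−0.103) with TMM scaling, TRBV31 with DESeq2 (0.0037), and TRBV3 at equal depth (−0.0101) and with usual J ends only (−0.0022). Those of the other named segments and lengths that did so were TRBJ2-1 without the block (0.0774, from −0.15), TRBJ1-1 (0.0602, from −0.15) and 39 nucleotides (0.000185, from −0.16) with clonotypes counted, and 45 nucleotides with TMM scaling (−0.124, from 0.06) and with clonotypes counted (−0.00608).

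With each mouse left out in turn, mLN minus spleen ranged from −4.35 to 4.79 percentage points for the top clonotype, −5.30 to 11.5 for the top 10, −294 to 7.90 clonotypes for richness, −0.0333 to 0.0461 for clonality, −0.324 to 0.222 nucleotides for CDR3 length by UMI, −0.00162 to 0.0209 by clonotype, −0.109 to 0.00644 for hydropathy, −0.410 to 0.515 nucleotides for the V to J gap, −6.43 to 1.56 percentage points for TRBJ2 and −19.7 to 0.229 for UMIs unseen in the other organ. The overlap (KO minus WT) ranged from −0.169 to 0.0107. Log2 fold changes ranged from −0.56 to 0.20 for TRBV1, −0.25 to 0.33 for TRBV2, −0.34 to 0.37 for TRBV31, −0.14 to 0.16 for TRBV3 and −0.0461 to 0.56 for TRBJ1-3, and they also changed sign for TRBJ2-1 (0.18 without KO replicate 1), TRBJ1-1 (0.30 without KO replicate 3) and lengths of 42 and 39 nucleotides (−0.0246 and 0.21 without KO replicate 1) and 45 nucleotides (−0.00263 without KO replicate 2). Leaving out KO replicate 3 reversed the means for the top 10, richness and clonality at 2488 UMIs. Clonality also reversed without KO replicate 2 (−0.000846), and richness without KO replicate 3 stayed below 0 with each mouse at its smaller library (−306), with no downsampling (−1301) and without clonotypes of 1 UMI (−2.48). The 2488 UMIs of KO replicate 3 limit its mLN values. The cause of these changes was not tested. Of the other recomputed values, 248 of the comparisons and 226 of single segments, lengths and clonotype groups had the sign and call given in the report, or moved by less than the spread between mice.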

Other observations

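Among the clonotypes tested, CDR3 amino acid sequences were rarely common to several mice. Of the 286 distinct translated sequences among the 287 in-frame clonotypes tested in KO mice, 1 was tested in at least 2 of the mice. Of the 98 called nucleotide sequences, 77 were also seen in the tables of another mouse, at no more than 0.0919% of its UMIs. The same count is not given for uncalled clonotypes, so that it does not set the called ones apart. Sequences whose frequency was 100-fold higher in the library of some other mouse held 0% to 0.400% of UMIs in the KO libraries. The origin of these low counts was not tested. Clonotypes that each took more than 1% of their library, a limit chosen after the values were seen, made up 32.8% of mLN UMIs and 46.3% of spleen UMIs at equal depth in KO replicate 1, 24.6% and 19.2% in KO replicate 2, and 56.4% and 22.5% in KO replicate 3.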
